A study of Homo sapiens with 118 samples.

Results

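Genes of iron handling, 10 in all, were followed after 72 hours of exposure to a histone deacetylase (HDAC) inhibitor in differentiated HepaRG cells, a long-established hepatic line of human origin. The genes were the receptors TFRC and TFR2, the ferritin chains FTH1 and FTL, the transporters SLC40A1 and SLC11A2, the ferroxidase CP, the hormone HAMP and its regulators HFE and TMPRSS6. A member was each row of the count table (a feature, the target of a probe pair) whose name without its trailing number was the symbol of any of these 10 genes. This gave 14 features of 9 genes among 22068 features of 19470 symbols in all. FTH1 was not analysed here. HFE had 5 features and TMPRSS6 had 2, and features of the same gene are not independent measurements.

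The 8 inhibitors were the hydroxamic acids panobinostat, scriptaid, trichostatin A and vorinostat, the benzamides mocetinostat and tacedinaline, the cyclic peptide apicidin and the fatty acid valproic acid. Each was given at 5 concentrations, from C1, the lowest, up to C5, and was renewed every day. No group carried a genetic change, and all groups shared the line, the medium and the exposure time. The range from C1 to C5 was 0.041722 to 0.86 µM for apicidin, 0.177222 to 3.9 µM for mocetinostat, 0.001468 to 0.084 µM for panobinostat and 4.94 to 94.5 µM for scriptaid. It was 1.143333 to 44 µM for tacedinaline, 0.018811 to 1.5237 µM for trichostatin A and 0.404778 to 23.5 µM for vorinostat. For valproic acid the dose labels ran from 100.478 to 3038, whereas the treatment protocol gave 0.100478 to 3.038 µM, so the unit of its concentrations was not settled. Replicates 1, 2 and 3 came from 3 batches of HepaRG cells. There were 118 libraries in 40 groups, of which panobinostat C3 and trichostatin A C4 held 2 libraries and the other 38 held 3. Solvent controls were not used here, so C1 of the same chemical was the reference, and any effect that had reached its full size by C1 would be missed.

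Hepatocytes take up transferrin-bound iron through transferrin receptors, store it in ferritin shells built of light and heavy chains, and release it through ferroportin, the product of SLC40A1 and the only known iron exporter of vertebrate cells. Ceruloplasmin, the product of CP, is a copper protein secreted by the liver that oxidises released iron so that transferrin can bind it. Hepcidin, the product of HAMP, is the liver hormone that causes ferroportin to be degraded. HFE, TFR2 and hemojuvelin act upstream to raise HAMP transcription, and the protease TMPRSS6 restrains it by cleaving hemojuvelin. The messages of the ferritin chains, ferroportin, TFRC and some forms of SLC11A2 also carry iron-responsive elements, RNA hairpins bound by iron regulatory proteins.

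Promoter sequences of 6 of the 10 genes were found in RefSeq (GRCh38.p14). Those of FTL, HFE and SLC40A1 are shown because features of these genes fell together in mocetinostat, scriptaid, tacedinaline and vorinostat. Each run is the 250 bases before the transcription start, written 5′ to 3′ on the gene's strand, and capitals mark GC boxes (GGGCGG) and CCAAT boxes (CCAAT) on either strand. The windows were chr19:48965059-48965308 on the plus strand for FTL, chr6:26087179-26087428 on the plus strand for HFE and chr2:189580787-189581036 on the minus strand for SLC40A1.
FTL: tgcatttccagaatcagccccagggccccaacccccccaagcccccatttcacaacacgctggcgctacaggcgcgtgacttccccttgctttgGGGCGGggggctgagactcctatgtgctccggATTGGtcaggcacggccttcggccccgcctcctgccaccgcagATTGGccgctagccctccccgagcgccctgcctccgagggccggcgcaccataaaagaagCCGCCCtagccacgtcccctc
HFE: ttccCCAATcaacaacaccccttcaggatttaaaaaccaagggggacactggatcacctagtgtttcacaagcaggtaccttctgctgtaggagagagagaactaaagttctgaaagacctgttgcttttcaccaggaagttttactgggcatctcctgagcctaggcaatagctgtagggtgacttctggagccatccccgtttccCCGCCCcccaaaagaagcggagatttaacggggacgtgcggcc
SLC40A1: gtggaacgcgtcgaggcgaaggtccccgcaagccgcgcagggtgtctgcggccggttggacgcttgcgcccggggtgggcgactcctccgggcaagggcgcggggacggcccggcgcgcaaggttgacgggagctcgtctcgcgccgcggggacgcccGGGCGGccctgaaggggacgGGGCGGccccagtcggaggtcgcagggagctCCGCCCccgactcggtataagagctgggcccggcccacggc
The FTL window held 2 GC boxes and 2 CCAAT boxes, the SLC40A1 window 3 GC boxes and the HFE window 1 of each. No match overlapped another. A GC box was present in 42.6% of 35116 RefSeq promoter windows of the same length and a CCAAT box in 32.01%, so these matches are a description of common elements. The iron-responsive element of FTL lies in its 5′ untranslated region, and its 6-base loop is in capitals in the line that follows, which covers bases 28 to 50 of the transcript at chr19:48965336-48965358 (plus strand).
FTL loop region: tcttgcttcaaCAGTGTttggac
The letters CAGTGT were found in the first 50 transcript bases of 1.24% of the 35116 transcripts on the given strand.

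Library totals ran from 1061359 to 5250260 counts, with a median of 3702007. Mean totals were lower at C5 than at C1 in all 8 chemicals, at 48.9% of the C1 mean in vorinostat, the lowest share, to 97.2% in trichostatin A, the highest. Scriptaid C4 replicate 3, mocetinostat C2 replicate 3 and trichostatin A C1 replicate 3 stood apart from their group mates. Calls at C2 to C5 within these chemicals that rest on them are given with and without them. Trends and tests between chemicals were not repeated without these single libraries. At C1 the summed level of 9 hepatocyte markers (ALB, APOA1, APOB, TTR, SERPINA1, FGB, TAT, HNF4A and ASGR1) was 13383 to 61486 CPM (counts scaled to a library size of 1e6). Their median levels ran from 15.6 CPM (HNF4A) to 22372 CPM (ALB), in cells that the labels call both differentiated and progenitor cells. Of the 7 macrophage marker genes, CD68 and CD14 were read, at median levels of 43.2 and 4.90 CPM at C1, whereas C1QA, CD163, MARCO, VSIG4 and CSF1R had a median count of 0, and HBA1 and HBB were at 0 in all libraries. At C5 the summed hepatocyte level was 3009 to 45108 CPM and 58 of 72 tests of these markers passed as falling. Of the markers of other cells, 11 of 33 biliary tests rose, 8 of 66 stellate and mesenchymal tests rose and 27 fell, 3 of 16 macrophage tests fell, and 7 of 8 erythroid tests, all of HBG1, rose. Over all features 11.6% of tests at C5 rose and 13.4% fell. The stellate and mesenchymal rises (12.1%) and the macrophage falls (18.8%) were near these shares and are no result about those cells. In a bulk lysate, fewer hepatocytes and less RNA per hepatocyte cannot be told apart.

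At the highest concentration iron handling features were called as lower in 7 of the 8 chemicals. Among the features tested in all 8, CP had the lowest median log2 change at C5, -4.14, with HFE between -1.53 and -2.49, FTL at -0.82, SLC40A1 at -0.74 and SLC11A2 at -0.42. Each chemical was fitted on its own with edgeR's quasi-likelihood F test on the deposited counts, and a feature was called when it changed by a factor of 1.5 or more at a Benjamini-Hochberg adjusted p, over all features of the fit, below 0.05. Adjusted p-values printed as "edgeR adjusted p" come from these fits, and log2 values are changes against C1 with their standard error (SE). Of the 112 pairs of a feature and a chemical, 70 passed the filter on low counts and were tested, and 42 did not. The counts that follow are a description of those that passed. Several features of HFE (7, 6 and 5 called falls at C5) and of TMPRSS6 (4 and 1) enter them. The members were also chosen with earlier results of these data known. At C5, 42 of the 70 tests (60%) were called as falling, against 13.4% of 101732 tests over all features. None was called as rising by edgeR, with 0 rising at an unadjusted p under 0.05 and 0 called as rising by DESeq2. All 42 falls ran in the same direction in each of the 3 HepaRG batches. They were picked as called falls from these same libraries, so this shared direction is a description and no separate support. Of the 42, 22 kept their call whichever batch was left out.

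By chemical, the features called as falling at C5 were 6 of 9 tested in apicidin (15% of all features), 8 of 9 in mocetinostat (15.7%), 2 of 9 in panobinostat (9.46%) and 8 of 9 in scriptaid (17%). They were 7 of 7 in tacedinaline (20.1%), 5 of 9 in valproic acid (6.22%) and 6 of 8 in vorinostat (24.9%). In trichostatin A 0 of 10 were called by edgeR or by DESeq2, with 4 at an unadjusted p under 0.05 in each, and 0.0154% of all its features were called as falling. The median log2 change of the tested features was -1.69 in apicidin, -2.69 in mocetinostat, -0.68 in panobinostat, -2.95 in scriptaid, -2.38 in tacedinaline, -0.35 in trichostatin A, -1.18 in valproic acid and -1.78 in vorinostat. The median over all features tested lay between -0.0018 and 0.0842 in the 8 chemicals. Hepatocyte markers moved in the same samples, with 8, 9, 7, 9, 9, 0, 7 and 9 of 9 called as falling in the alphabetical order of the chemicals, and their part in the result was not tested.

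**Figure D1:**
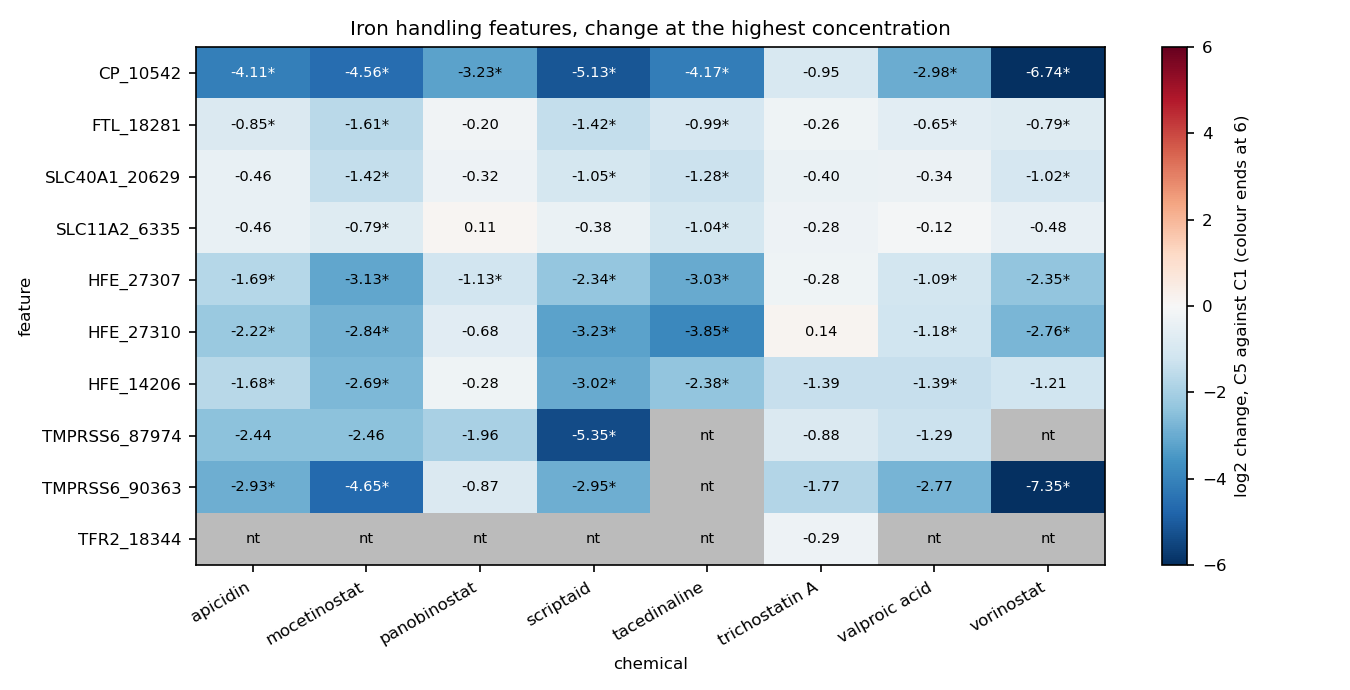
Log2 change of each tested iron handling feature (rows) at C5 against C1 in the 8 chemicals (columns), from edgeR. An asterisk marks a call, nt a feature not tested in that chemical, and values past 6 take the end colour. CP holds the darkest cell in apicidin, panobinostat, tacedinaline and valproic acid, and its values run from -6.74 in vorinostat to -0.95 in trichostatin A, and the trichostatin A column holds no asterisk. The TMPRSS6 value of -7.35 in vorinostat is fitted on a group with 0 counts and is no bound.

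CP, the gene of the ferroxidase ceruloplasmin, was called at C5 in 7 of 8 chemicals, and in those 7 the C5 libraries did not overlap the C1 libraries. The share of all features without such overlap was not counted, so here and below a lack of overlap is a description only. In vorinostat CP was at 86.9, 99.4 and 104 CPM in the C1 libraries and at 1.64, 0.951 and 0 CPM in the C5 libraries. These C5 values rest on 2, 2 and 0 counts, and the pooled C1 level was 124 times the C5 level, with an exact 95% interval of 48.3 to 456 for counting error only. The fitted log2 change was -6.74 (SE 0.541, edgeR adjusted p = 2.45e-12). In scriptaid CP went from 149, 81.1 and 74.9 CPM to 4.25, 2.56 and 1.45 CPM (log2 change -5.13, SE 0.672, edgeR adjusted p = 1.67e-05). In mocetinostat CP went from 302.8, 113 and 198 CPM to 14.9, 5.93 and 3.67 CPM (log2 change -4.56, SE 0.491, edgeR adjusted p = 3.55e-06). The first batch was the highest of the 3 in mocetinostat at both ends of the range.

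In tacedinaline CP was at 125, 78.8 and 91.9 CPM at C1 and at 2.50, 9.66 and 2.47 CPM at C5 (log2 change -4.17, SE 0.368, edgeR adjusted p = 1.38e-12). In apicidin CP was at 143, 87.2 and 91.3 CPM at C1 and at 9.99, 4.40 and 4.22 CPM at C5 (log2 change -4.11, SE 0.356, edgeR adjusted p = 3.61e-08). Panobinostat and valproic acid gave the smallest called falls of CP. In panobinostat it went from 123, 101 and 85.0 CPM to 15.1, 8.42 and 9.90 CPM (log2 change -3.23, SE 0.280, edgeR adjusted p = 5.38e-08). In valproic acid it went from 91.0, 66.4 and 102 CPM to 16.3, 12.4 and 3.67 CPM (log2 change -2.98, SE 0.327, edgeR adjusted p = 1.42e-06). Leaving out any batch ended none of the 7 calls of CP at C5.

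Trichostatin A gave no call for CP. Its C1 libraries held 133, 75.2 and 31.1 CPM and its C5 libraries 40.8, 28.5 and 53.2 CPM, so the groups overlapped (log2 change -0.95, SE 0.370, edgeR adjusted p = 0.464). The lowest C1 value came from replicate 3, whose 9 hepatocyte markers summed to 13383 CPM against at most 52882 CPM in its group mates. Without that library, an alternative chosen after seeing the data, CP was called (log2 change -1.34, SE 0.270, edgeR adjusted p = 0.0119), as were 104 features in all. Without the whole of batch 3 it was also called (log2 change -1.56, edgeR adjusted p = 0.00890).

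Over the whole range, the median CP level of all libraries of a concentration was 95.7 CPM at C1, 75.3 at C2, 28.4 at C3, 12.5 at C4 and 5.17 at C5. CP was first called at C3 in apicidin, mocetinostat, tacedinaline and vorinostat and at C4 in panobinostat, scriptaid and valproic acid. The C3 call in vorinostat was lost without batch 2 (edgeR adjusted p = 0.201). In scriptaid, without C4 replicate 3 (an alternative chosen after seeing the data), CP was called at C4 (log2 change -1.92, edgeR adjusted p = 0.00415) and already at C3 (-1.69, 0.00435). The C4 call in panobinostat was lost without batch 1 (0.544) or 3 (0.155) and that in scriptaid without batch 1 (0.182) or 2 (0.150). At C5 the order of the mean levels, from the lowest, was vorinostat, scriptaid, tacedinaline, apicidin, mocetinostat, valproic acid, panobinostat and trichostatin A. The ranges of neighbours in that order overlapped up to panobinostat, and all trichostatin A libraries lay above those of panobinostat.

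**Figure D2:**
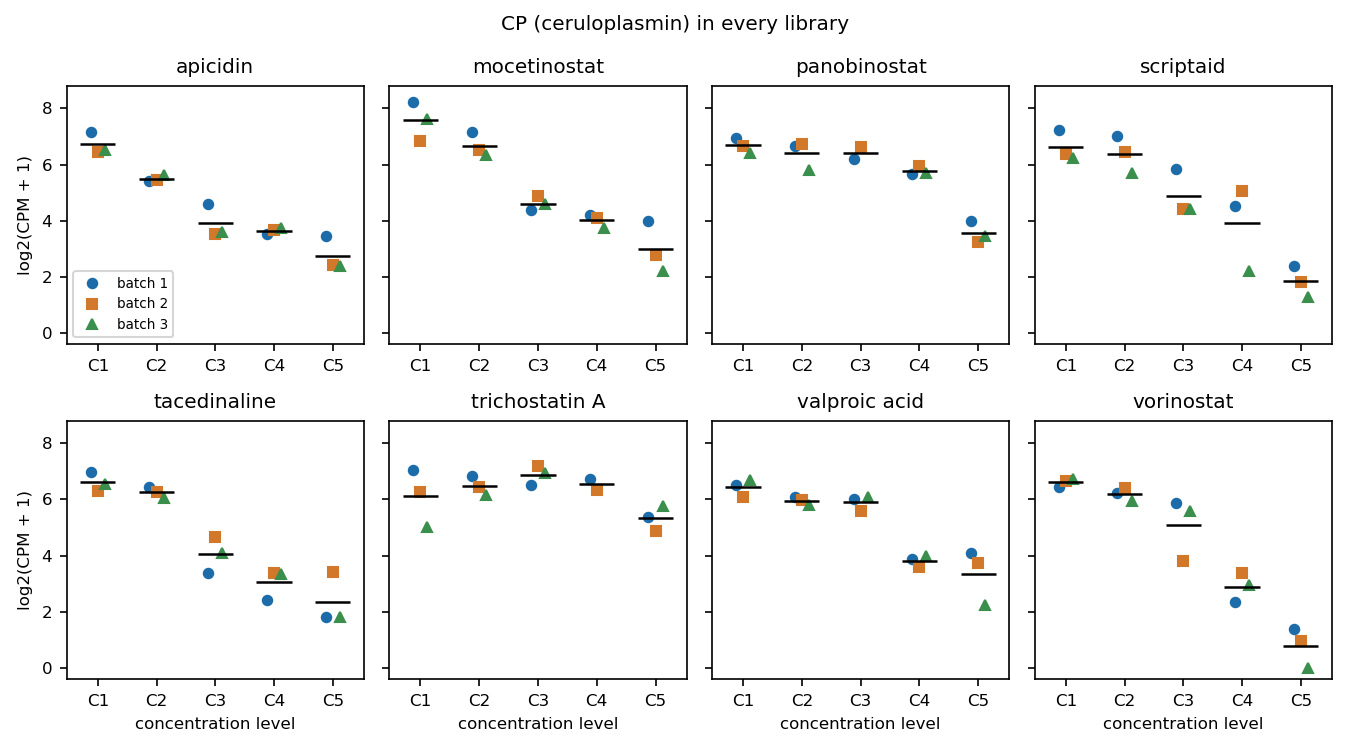
CP level in every library, as log2(CPM + 1), against the concentration level in 8 panels, with a marker for each HepaRG batch and a line at the mean of the plotted values. In apicidin the C2 points (41.7 to 48.2 CPM) already lie below the C1 points (87.2 to 143 CPM), and in panobinostat and valproic acid the points at C4 and C5 lie below those at C1. In trichostatin A the range of the C5 points (28.5 to 53.2 CPM) overlaps that of the C1 points (31.1 to 133 CPM).

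FTL, the light chain of the storage protein ferritin, was called as lower at C5 in 6 of 8 chemicals, with no overlap between C5 and C1 in those 6. In mocetinostat the FTL level was 187, 173 and 252 CPM at C1 and 53.4, 61.4 and 75.6 CPM at C5 (log2 change -1.61, SE 0.281, edgeR adjusted p = 3.83e-04). In scriptaid it was 170.0, 143 and 148 CPM at C1 and 54.0, 71.3 and 41.1 CPM at C5 (log2 change -1.42, SE 0.311, edgeR adjusted p = 0.00196). These were the deepest falls of FTL. The other called changes were -0.99 in tacedinaline, from 177 ± 14.7 to 86.0 ± 15.1 CPM (SD, n = 3, edgeR adjusted p = 7.79e-06), and -0.85 in apicidin, from 180.0 ± 5.28 to 99.2 ± 19.8 CPM (edgeR adjusted p = 0.00136). They were followed by -0.79 in vorinostat, from 131 ± 13.8 to 70.1 ± 18.8 CPM (edgeR adjusted p = 0.00129), and -0.65 in valproic acid, from 144 ± 20.9 to 91.7 ± 18.8 CPM (edgeR adjusted p = 0.0282). In panobinostat the FTL level was 137 ± 31.3 CPM at C1 and 121 ± 36.1 CPM at C5, and in trichostatin A 141 ± 41.2 and 116 ± 35.8 CPM, and neither passed the test (edgeR adjusted p = 0.619 and 0.764).

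The FTL call was lost in scriptaid without batch 1 (edgeR adjusted p = 0.0506) and in valproic acid without batch 1 (0.313) or 2 (0.254), and in vorinostat without batch 3 its fold was under 1.5. FTL has processed pseudogenes of near-identical sequence, and the probe was not checked against them, so part of the FTL count could come from them. In the order of FTL levels at C5, from scriptaid (lowest) through mocetinostat, vorinostat, tacedinaline, valproic acid, apicidin and trichostatin A to panobinostat, every chemical's range overlapped that of the next.

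SLC40A1, the gene of the iron exporter ferroportin, was called as lower at C5 in 4 chemicals. The C5 and C1 libraries did not overlap in 7, which is a description and in itself no evidence of a change. In mocetinostat the SLC40A1 level was 277, 290.0 and 206 CPM at C1 and 90.9, 114 and 70.7 CPM at C5 (log2 change -1.42, SE 0.250, edgeR adjusted p = 4.28e-04). In tacedinaline it was 213, 215 and 176 CPM at C1 and 87.9, 90.7 and 59.8 CPM at C5 (log2 change -1.28, SE 0.186, edgeR adjusted p = 2.93e-07). In scriptaid it was 182, 190.4 and 170.0 CPM at C1 and 90.9, 114 and 47.8 CPM at C5 (log2 change -1.05, SE 0.272, edgeR adjusted p = 0.00683), a call lost without batch 1 (0.0837). In vorinostat SLC40A1 went from 148, 192 and 151 CPM to 81.8, 89.4 and 55.5 CPM (log2 change -1.02, SE 0.181, edgeR adjusted p = 1.75e-05). Thus these 4 groups ended between 47.8 and 114 CPM.

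The other chemicals ended higher. SLC40A1 at C5 was 171 ± 12.6 CPM in apicidin, 148 ± 15.6 in panobinostat, 171 ± 1.51 in trichostatin A and 147 ± 26.4 in valproic acid (SD, n = 3), with log2 changes of -0.46, -0.32, -0.40 and -0.34. In apicidin the adjusted p was 0.0451 in edgeR but the fold was 1.376, under the 1.5 required. In the order of C5 levels a gap with no overlap lay between mocetinostat, the highest of the 4 called chemicals, and valproic acid, and another between panobinostat and apicidin. SLC11A2, the gene of the divalent metal transporter that carries iron out of endosomes, was called in 2 chemicals. In tacedinaline SLC11A2 was at 83.3, 81.7 and 53.1 CPM at C1 and at 34.5, 35.9 and 30.5 CPM at C5 (log2 change -1.04, SE 0.219, edgeR adjusted p = 1.43e-04). In mocetinostat SLC11A2 was at 86.2, 111 and 89.1 CPM and then at 59.4, 60.6 and 37.6 CPM (log2 change -0.79, SE 0.251, edgeR adjusted p = 0.0253), a call lost without batch 2 (0.201) or 3 (0.144). In the other 6 chemicals its log2 change ran from -0.48 in vorinostat to 0.11 in panobinostat. Scriptaid C4 replicate 3 held 161 CPM of SLC11A2, and its removal (an alternative chosen after seeing the data) turned the C4 change in scriptaid from 0.35, not called, to -0.92 (edgeR adjusted p = 0.0415), with a call also at C3 (-0.85, 0.0417).

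**Figure D3:**
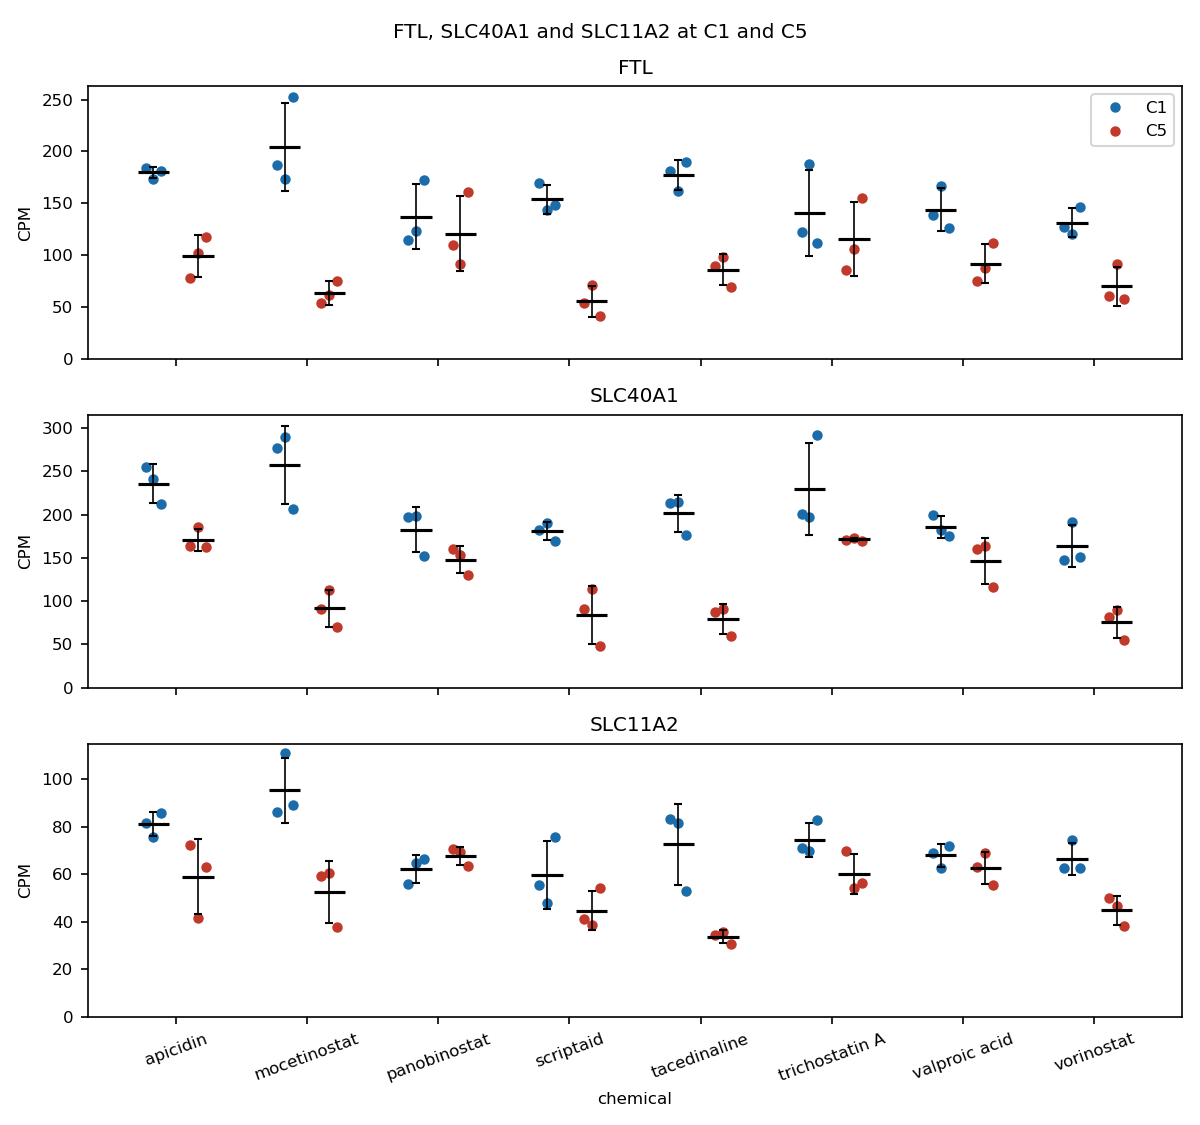
Levels of FTL, SLC40A1 and SLC11A2 in CPM (linear axes from 0) in each library at C1 (blue) and C5 (red) of the 8 chemicals, with the mean as a line and the SD as bars (n = 3). The red and blue points separate for FTL in 6 chemicals and for SLC40A1 in 7, and SLC11A2 shows the closest groups, with 4 chemicals that do not overlap. The share of all features that separate in this way was not counted.

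HFE, an MHC class I-like protein that binds transferrin receptors and takes part in hepcidin control, was read by 5 features, of which 3 carried most of its counts. HFE_27307 was called at C5 in 7 of 8 chemicals, HFE_27310 in 6 and HFE_14206 in 5, and all these calls were falls. The HFE_27307 level in tacedinaline was 57.5, 70.2 and 52.6 CPM at C1 and 7.496, 8.62 and 4.95 CPM at C5 (log2 change -3.03, SE 0.310, edgeR adjusted p = 8.73e-11). In mocetinostat it was 62.5, 60.6 and 67.2 CPM at C1 and 12.5, 2.84 and 5.20 CPM at C5 (log2 change -3.13, SE 0.459, edgeR adjusted p = 8.14e-05). Vorinostat and scriptaid followed with changes of -2.35 (edgeR adjusted p = 4.11e-07) and -2.34 (edgeR adjusted p = 3.16e-04), to C5 levels of 9.70 ± 4.63 and 7.25 ± 3.79 CPM (SD, n = 3). Apicidin gave -1.69, from 51.2 ± 2.48 to 15.8 ± 4.93 CPM (edgeR adjusted p = 8.51e-05).

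The smallest called changes of HFE_27307 were -1.13 in panobinostat, from 57.8 ± 4.26 to 26.7 ± 4.30 CPM (edgeR adjusted p = 0.00122), and -1.09 in valproic acid, from 65.3 ± 9.91 to 30.7 ± 9.50 CPM (edgeR adjusted p = 0.00502). These 2 calls were lost without batch 1 (0.0724 and 0.0644) and the latter also without batch 2 (0.0896). In trichostatin A the HFE_27307 libraries held 68.5, 61.8 and 48.4 CPM at C1 and 43.7, 54.5 and 47.2 CPM at C5, which overlapped (log2 change -0.28, SE 0.203, edgeR adjusted p = 0.707). The deepest fall of HFE_27310 was in tacedinaline, from 13.3, 18.3 and 17.9 CPM to 0, 1.379 and 1.65 CPM (log2 change -3.85, SE 0.625, edgeR adjusted p = 2.39e-06). In panobinostat HFE_27310 was at 14.3, 12.8 and 13.5 CPM and then at 3.91, 13.0 and 8.53 CPM, and was not called (edgeR adjusted p = 0.287). HFE_14206, the dimmest of the 3 with at most 69 counts in a library, lost its call in each of its 5 chemicals when a single batch was left out, with edgeR adjusted p-values from 0.0593 to 0.369. HFE_27310 lost 4 of its 6 calls in that way (0.0517 to 0.246). Of the remaining features, HFE_27308 summed to 30 counts in all 118 libraries and HFE_27311 to 6 counts in 1 library, and neither was tested.

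**Figure D4:**
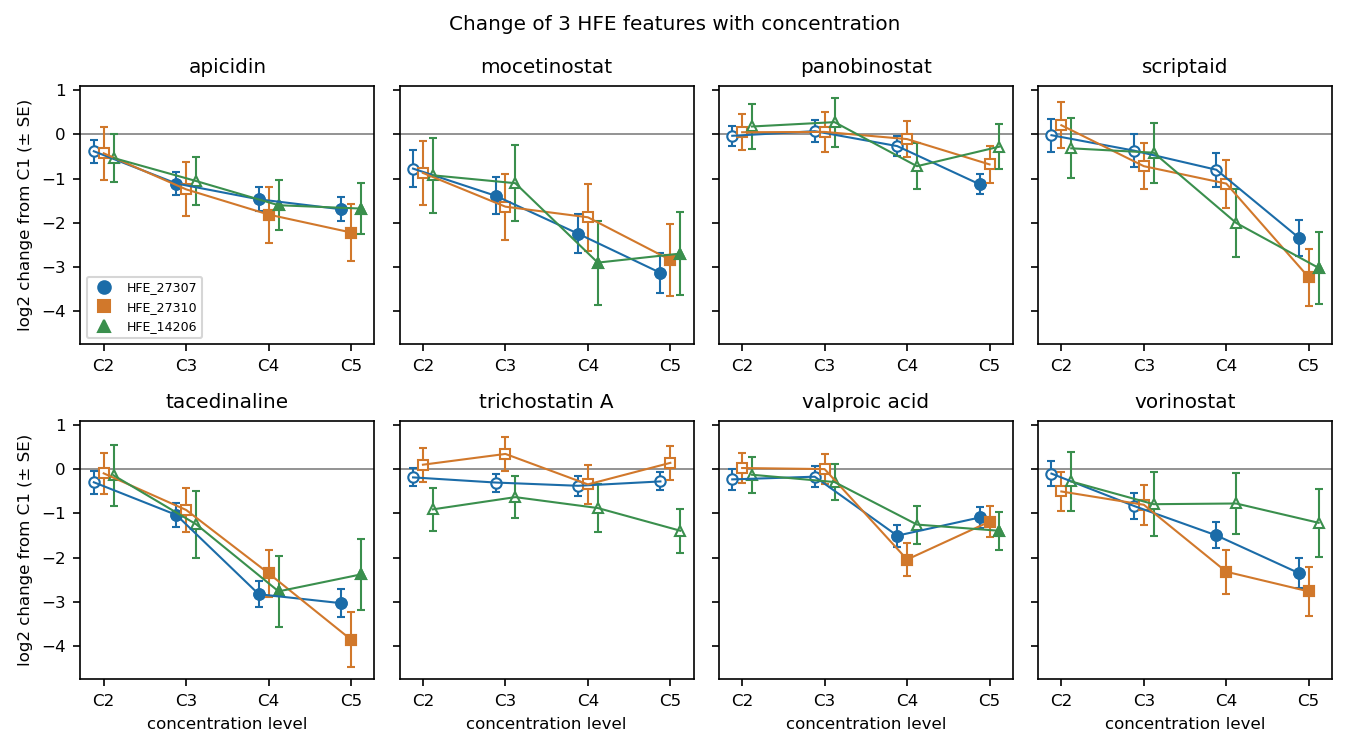
Log2 change from C1 (± SE, from edgeR) of HFE_27307, HFE_27310 and HFE_14206 at C2 to C5 in the 8 chemicals, with filled symbols for calls and hollow symbols for values not called. The features descend together in apicidin, mocetinostat, scriptaid and tacedinaline, while in trichostatin A none of the symbols is filled.

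The transferrin receptors were near the lower limit of the assay. TFRC, the main receptor for transferrin-bound iron, summed to 305 counts over 118 libraries, with 0 counts in 39 of them and at most 15 in any, and it was tested in no chemical. The pooled TFRC counts at C1 and C5 gave C1-over-C5 ratios of 0.280 to 2.43 in 7 chemicals, and every exact 95% interval included 1. In tacedinaline TFRC went from 8 counts over the 3 C1 libraries to 0 at C5, which is at least 2.26-fold lower when 3 counts over the group are taken as the floor. TFR2, the liver receptor that senses transferrin saturation, summed to 394 counts and was above 0 in 22 of 24 C1 libraries and in 7 of 24 C5 libraries. TFR2 went from 27 counts over the C1 group to 0 in mocetinostat (at least 8.30-fold lower), from 15 to 0 in scriptaid (at least 3.64-fold) and from 12 to 0 in vorinostat (at least 2.24-fold). In panobinostat its pooled C1 level was 6.38 times the C5 level (interval 2.23 to 25.0) and in valproic acid, at 18 counts against 1, 18.0 times (2.85 to 751). Of 5 such ratios only these 2 had an interval above 1. The intervals in apicidin, tacedinaline and trichostatin A included 1, and the lowest ratio was 1.32. Trichostatin A, the only chemical in whose own fit TFR2 passed the filter, gave 24 and 17 counts and a log2 change of -0.29. These bounds and intervals cover counting error only and leave out the spread between libraries.

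HAMP, the gene of hepcidin, was barely read. It summed to 27 counts, in 12 of the 118 libraries, and was at 0 in all 24 C1 libraries, which allows a pooled level of up to 0.0336 CPM at C1 by the floor of 3 counts. The highest HAMP count was 7, in panobinostat C5 replicate 2, and no change of this hormone's message could be tested at this depth. TMPRSS6, the protease that restrains hepcidin, was read by 2 dim features with 1129 and 1050 counts in all. The median TMPRSS6_87974 level fell from 5.19 CPM at C1 to 0.476 at C5 and that of TMPRSS6_90363 from 4.12 to 0.562 CPM, over the 8 chemicals. TMPRSS6_90363 was called at C5 in apicidin, mocetinostat, scriptaid and vorinostat (edgeR adjusted p from 7.94e-04 to 0.0285). In vorinostat TMPRSS6_90363 was at 11.6, 7.28 and 7.16 CPM at C1 and at 0 in all C5 libraries, 73 counts against 0, which is at least 13.6-fold lower. In mocetinostat it had 38 counts at C1 against 1 at C5, a ratio of 35.0 with an interval of 5.92 to 1419. The 3 calls outside vorinostat were each lost when some single batch was left out (edgeR adjusted p from 0.0750 to 0.203). TMPRSS6_87974 was called in scriptaid, with 80 counts against 1 (ratio 58.2, interval 10.1 to 2326, edgeR adjusted p = 0.00678), and lost that call without batch 2 (0.119). Where called, both features were near 0 counts at C5, so groups of lower concentration carried them past the filter on low counts. A fall was thus the likely outcome of these tests, and the TMPRSS6 calls are a description.

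Along the concentration range, calls of the iron handling features began at C3. At C2 edgeR called 0 of the 70 tests, against 0.0206% of all features, with 4 at an unadjusted p under 0.05 and 1 call by DESeq2, CP in apicidin (log2 change -1.28, DESeq2 adjusted p = 0.0145). Without mocetinostat C2 replicate 3, chosen after seeing the data, edgeR called SLC11A2 at C2 in mocetinostat (log2 change -0.78, adjusted p = 0.0393), and at C4 it added calls of SLC11A2 (-0.70, 0.0348) and HFE_27310 (-1.88, 0.0372). At C3 11 of the 70 were called as falling, against 3.16% of all features, and at C4 27, against 8.14%. A linear trend on log2 concentration was called as falling in 44 of 70, against 12.7%. HFE_27307 was first called at C3 in apicidin, mocetinostat and tacedinaline, FTL at C3 in mocetinostat and tacedinaline, and SLC40A1 at C3 in tacedinaline. The FTL call at C3 in mocetinostat was lost without batch 2 (edgeR adjusted p = 0.138), and the SLC40A1 call at C3 in tacedinaline without batch 1 (0.0982) or 2 (0.103). With HepaRG batch as a block the HFE_27307 call at C3 in mocetinostat was lost (edgeR adjusted p = 0.0639).

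The size of the fall differed between chemicals for 5 features. In an edgeR fit of all libraries, the change from C1 to C5 was not equal in the 8 chemicals for HFE_27307 (adjusted p = 5.24e-09), CP (2.32e-08), SLC40A1 (6.54e-05), HFE_27310 (9.72e-05) and FTL (4.72e-04), where 30.3% of 15632 features passed 0.05. The adjusted p was 0.105 for SLC11A2, 0.203 for HFE_14206, 0.0664 for TMPRSS6_90363, 0.358 for TMPRSS6_87974, 0.208 for TFR2 and 0.616 for TFRC. Of the 28 pairs of chemicals, 14 differed for HFE_27307, 10 for CP, 9 for HFE_27310, 8 for SLC40A1 and 5 for FTL, each adjusted over all features. Over all 15632 features the share that differed in a pair ran from 0.0128% (panobinostat and valproic acid) to 25.8% (trichostatin A and vorinostat). For CP, trichostatin A differed from each of the 7 other chemicals (edgeR adjusted p from 4.12e-08 to 0.0400). In those pairs 2.85% (valproic acid) to 25.8% (vorinostat) of all features differed. These pair tests include trichostatin A C1 replicate 3, the library with low hepatocyte markers and low CP, and were not repeated without it. The concentrations were not matched, so a difference here is one of chemical and concentration together. Scriptaid, tacedinaline and vorinostat lay on one plate and the other 5 chemicals on another, and this cannot be told apart from the chemical. Without batch 1 the difference was lost for FTL (0.0511) and SLC40A1 (0.0641).

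Around these members, genes of carriers in plasma fell and some other genes rose. TF, the gene of transferrin, was called as falling at C5 in 7 of 8 chemicals (median log2 change -2.58), as were HP and HPX, the carriers of free hemoglobin and heme (medians -3.32 and -2.43). In tacedinaline TF fell from 3792 to 157 CPM (log2 change -4.54, edgeR adjusted p = 8.58e-25). Upstream of hepcidin, the interleukin-6 receptor gene IL6R fell in 7 chemicals (median -2.38) and HJV, the gene of hemojuvelin, in 6 (median -2.98). Like all genes named here, IL6R and HJV were picked as called in most chemicals of their list. The 24 features of hepcidin signalling gave 15 rises and 23 falls, so these 2 do not stand for the list. LRP1, an uptake receptor for heme bound to hemopexin, fell in 6 and ACO1, the gene of an iron regulatory protein, in 5 (medians -1.32 and -0.64). PCBP2 and PCBP1, which deliver iron to ferritin, fell in 4 and 3, and NUBP1, of iron-sulfur cluster assembly, fell in 4. CPOX, an enzyme of heme synthesis, rose in 2 chemicals, NUBP2, the partner of NUBP1, in 4 (median 0.74) and the hypoxia factor gene HIF1A in 4 (median 0.64).

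Counted by list, the 151 tests of 24 features of hepcidin signalling gave 15 rises and 23 falls at C5, or 9.93% and 15.2%, where 11.6% of tests over all features rose and 13.4% fell. The 83 tests of iron uptake and reduction gave 8 and 35 (9.64% and 42.2%), the 40 of iron regulatory proteins and sensing 6 and 7 (15.0% and 17.5%), and the 19 of ferritin loading 7 falls (36.8%). The 201 tests of mitochondrial iron and iron-sulfur clusters gave 14 rises and 10 falls (6.97% and 4.98%), the 84 of heme synthesis 12 and 4 (14.3% and 4.76%), and the 80 of heme breakdown and carriers 4 and 28 (5.0% and 35.0%). Hepatocyte markers moved in the same samples, and their part in these counts was not tested.

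**Figure D5:**
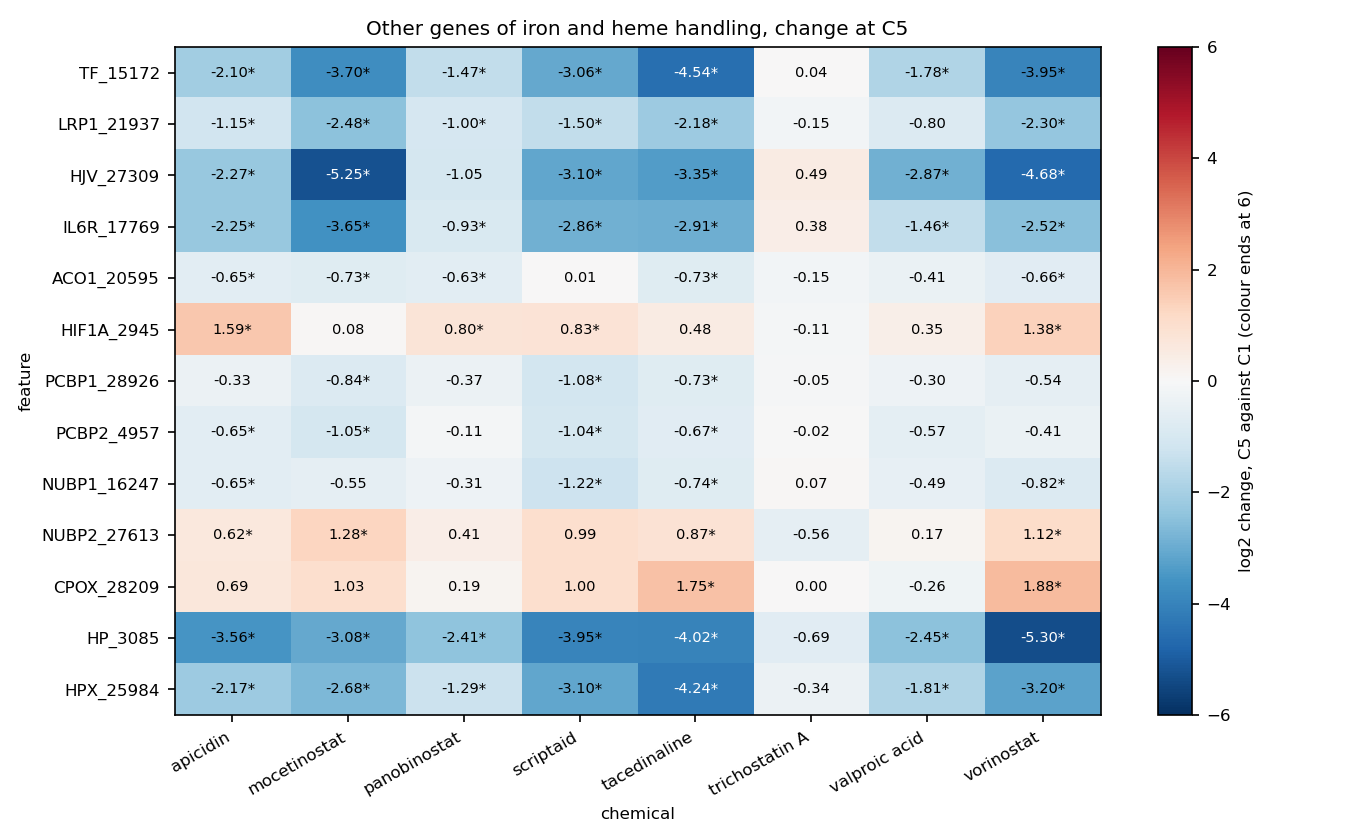
Log2 change at C5 against C1 of the named features of other iron and heme lists (rows) in the 8 chemicals (columns), from edgeR, with an asterisk for a call. TF, HP, HPX and IL6R are blue with an asterisk in every chemical other than trichostatin A, and HIF1A is red with an asterisk in 4.

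Features whose change ran most like that of a member were found by the Pearson correlation of the change from C1 over the 32 groups above C1, which share C1 groups within a chemical and are not independent. CP ran close to APOC1 (r = 0.970), and HFE_27307 was closest to SULT1C2 (0.968) and MDM2 (0.966). FTL was closest to SCP2 (0.925) and EPHX2 (0.917), SLC40A1 to LAD1 (0.917) and RABGGTB (0.911), and SLC11A2 to FUT10 (0.794) and AKR1D1 (0.782). HFE_27310 was closest to MDM2 (0.953) and AHSA2P (0.952), and HFE_14206 to PCDHB9 (0.879) and CDA (0.865). Among the members themselves, HFE_27307 and HFE_27310 gave r = 0.947, CP and HFE_27310 0.911, and SLC11A2 and CP 0.480.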

How the data were processed

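TempO-Seq hybridises pairs of detector probes to transcripts, ligates them and sequences the product. The values deposited by the authors are unnormalised counts of reads for each probe target. Per the submitters' processing notes the tools were bcl2fastq 2.20.422, fastp 0.23.2, STAR 2.7.10b and DESeq2 1.38.0, and the genome build is not given in the sources used here. Totals per library set the precision, and intervals cover counting error only.

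A last row without values in most libraries was left out, which kept 22068 of 22069 rows. Counts were filtered (filterByExpr), scaled (TMM) and tested with edgeR 4.0.16 in R 4.3.3, with a fit per chemical and no batch term. Levels are CPM with TMM factors over all 118 libraries. The edgeR fit per chemical was tested on simulated data modelled on apicidin, for C5 against C1 and for the trend. The fit of all libraries and the DESeq2 test were not tested in this way.

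Groups came from the labels. Replicate numbers mark HepaRG batches, and residuals of libraries correlated more within a batch (median r 0.0269 over 232 pairs) than between batches (-0.0120 over 464 pairs), so a batch block was an alternative. Others were library totals, DESeq2 size factors, DESeq2 1.42.0, no filter, a fold of 2, C1 and C2 together, a fit of all libraries and leaving out each batch.

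The members and gene lists were chosen with earlier results of these data known. Every member feature is named. From each other iron list, the 2 features called in most chemicals are named. Some results of the rules for named and most alike features are not reported here.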

Additional observations from a re-analysis of the deposited data

Results flagged for a closer look

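The change from C1 to C5 differed between the 8 chemicals for 5 iron handling features, by an F test over the chemicals in an edgeR fit of all 118 libraries, adjusted over 15632 features. The adjusted p was 5.24e-09 for HFE_27307, whose log2 change ran from -3.13 in mocetinostat to -0.28 in trichostatin A. It was 2.32e-08 for CP_10542 (-6.74 in vorinostat to -0.95 in trichostatin A) and 9.72e-05 for HFE_27310 (-3.85 in tacedinaline to 0.14 in trichostatin A). It was 6.54e-05 for SLC40A1_20629 (-1.42 in mocetinostat to -0.32 in panobinostat) and 4.72e-04 for FTL_18281 (-1.61 in mocetinostat to -0.20 in panobinostat). In the same test 30.3% of all features passed 0.05.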

How the results depend on the processing

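Of the 350 tested iron handling values, none of the 124 called changed sign under the alternatives, whereas 62 of those not called did under at least 1, and 1 of these, SLC11A2 at C4 in scriptaid, was then called. With HepaRG batch as a replicate block, the members called were 0 at C2, 11 at C3, 26 at C4, 41 at C5 and 44 for the trend, against 0, 11, 27, 42 and 44 without it, and the number that differed between chemicals stayed at 5. Of the C5 calls, the block ended that of HFE_14206 in mocetinostat (edgeR adjusted p = 0.0622). With library totals in place of TMM 37 were called at C5, and with a fold of at least 2 the count was 37. Without the filter, features otherwise not tested gave called rises of the trend for HAMP in panobinostat (log2 change 4.97, edgeR adjusted p = 0.0195), HFE_27308 in valproic acid (4.00, 0.0310) and HFE_27311 in mocetinostat (4.65, 0.0255), on at most 7 counts in a library. Called falls of the trend were also gained for TFR2 in mocetinostat (-4.68, 0.0160), scriptaid (-6.11, 0.0129) and vorinostat (-5.08, 0.00936). The same held for HFE_27308 in panobinostat (-4.22, 0.0298) and TMPRSS6_87974 in tacedinaline (-4.17, 0.00309) and vorinostat (-2.11, 0.0484). The fitted trends of HFE_27308 thus had opposite signs in panobinostat and valproic acid. This feature held 30 counts over 118 libraries and was above 0 in 1 of 24 C5 libraries, so no direction can be read from them. At C2 1 member was called without the filter and 1 by the DESeq2 Wald test, against 0. In trichostatin A 1 was called at C5 without the filter and 1 without C1 replicate 3 (chosen after seeing the data), against 0. In valproic acid 2 were called with library totals and 2 in a fit of all libraries, against 5. Leaving out a batch gave 4 to 11 calls at C3, 17 to 26 at C4, 28 to 38 at C5 and 31 to 33 for the trend. At C5 it gave 3 to 5 in apicidin, 5 to 6 in mocetinostat, 1 to 2 in panobinostat, 3 to 8 in scriptaid, 6 to 7 in tacedinaline, 0 to 1 in trichostatin A, 1 to 5 in valproic acid and 5 to 7 in vorinostat, and 3 to 6 features differed between chemicals. Without scriptaid C4 replicate 3 (chosen after seeing the data), members called in scriptaid went from 0 to 2 at C3 and from 1 to 2 at C4 and stayed at 8 at C5, and calls over all features went from 171 to 775 at C3 and from 623 to 1250 at C4. Without mocetinostat C2 replicate 3 (likewise), members called in mocetinostat went from 0 to 1 at C2 and from 5 to 7 at C4 and stayed at 3 at C3 and 8 at C5. Depth limits TFRC, TFR2, HAMP, HFE_27308 and HFE_27311, with 6 to 394 counts over all libraries. In the filtered fits per chemical with all batches none of their changes was called, and some had only counting bounds. In a fit of all libraries TFR2 was called as falling at C5 in mocetinostat (log2 change -5.96, edgeR adjusted p = 0.0110) and scriptaid (-5.30, 0.0438). Both C5 groups held 0 counts of TFR2, so these fitted sizes are no bounds.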
